A study of Caenorhabditis elegans with 36 samples.

Results

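The 109 microRNA hairpins described here are those of Caenorhabditis elegans whose registry name carries a number of 1800 or more, apart from mir-1821 and the mir-1829 and mir-2209 names, among the 250 hairpins counted in the study. The other 141 hairpins comprise 134 with a lower number or a letter name (lsy-6, lin-4 and let-7), called lower-numbered below, and 7 left out by the rule. The members were chosen by name, not by any measured value. The small RNA came from whole hermaphrodite worms of N2, the laboratory wild type. In 5 groups the worms had been given rotenone at 100 nM, and in 5 groups DMSO, its solvent, at 0.1 %, with times of 6 hours and 1, 2, 3 and 5 days. A further 2 groups had H2O at 0.1 % in place of DMSO, at 1 and 5 days. Each of the 12 groups had 3 libraries, 36 in all. The labels enter the times as the age of the worms, while the series title counts them from treatment, and no source says whether libraries of the same group stem from different cultures, so the p-values given here measure the spread between libraries, which may be technical.

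A microRNA is cut in steps from a hairpin in a longer transcript, first by Drosha with its partner Pasha and then by Dicer, and the mature strand guides an Argonaute protein (ALG-1 or ALG-2 for most worm microRNAs) to matching messenger RNAs. Hairpins are numbered in the order of registration. The early worm numbers hold the abundant, widely conserved families, while many of the later ones were found by deep sequencing, are low in abundance and have no known target. Some are mirtrons, short introns that splicing releases and that need no Drosha. Rotenone blocks complex I of the mitochondrial respiratory chain. Conservation cannot be read from count data and was not examined, so the hairpins are called here by their numbers only.

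Nearly all late-numbered hairpins had a count somewhere, but fewer had counts to test. At least 1 count over the 36 libraries was found for 106 of the 109 (97.2%), against 128 of the 134 lower-numbered hairpins (95.5%). Only mir-4930, mir-5548 and mir-8188 had none. At least 10 counts in 3 or more libraries were found for 68 of the late-numbered hairpins, against 120 of the lower-numbered ones. A count in every library was found for 50 (45.9%), against 119 of the lower-numbered hairpins (88.8%). The median total over all libraries was 310 counts for the late-numbered hairpins and 84092 counts for the lower-numbered ones. In CPM (counts divided by the library total, corrected with TMM factors), the median of the mean level was 0.906 CPM against 273 CPM. These levels are reads per hairpin. The kit does not capture all small RNAs with the same efficiency, so they order the hairpins by reads and not by molecules. All late-numbered hairpins together held 513674 counts, 0.162% of the total. In a single library 76 to 93 of them were detected. Total counts ran from 4361246 to 14960062 per library, and at the depth of the shallowest library the expected number was 72.0 to 86.3.

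**Figure D1:**
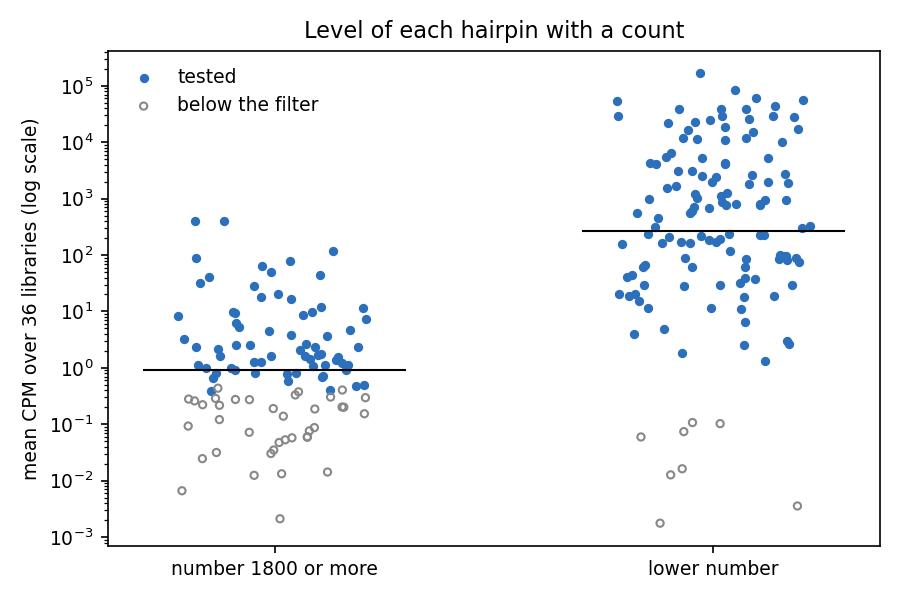
Mean level of each hairpin with at least 1 count over the 36 libraries, in CPM on a log axis, with the late-numbered hairpins on the left and the lower-numbered ones on the right. Filled points passed the filter for testing, open points did not, and the lines mark the medians over all 109 and 134 hairpins (0.906 and 273 CPM).

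A few hairpins carried most of these reads. A mean above 100 CPM was reached by 3 members, 13 lay between 10 and 100 CPM, 36 between 1 and 10 CPM and 57 at 1 CPM or less, against 82, 30, 8 and 14 of the lower-numbered hairpins. The highest were mir-5592-2 with 406 CPM and mir-5592-1 with 405 CPM, which ranked 66th and 67th by total counts among the 250 hairpins and held 51.0% of all late-numbered counts. mir-4813 followed with 119 CPM. mir-1820 had 87.2 CPM, mir-1830 77.3 CPM, mir-1817 64.4 CPM and mir-4816 50.5 CPM. mir-1832a had 44.8 CPM, mir-2212 40.2 CPM and mir-8199 32.4 CPM, and the top 10 together held 84.8% of the late-numbered counts.

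The level did not simply drop with the number. The 12 hairpins of the 1800s, led by mir-1830, mir-1820 and mir-1817, had a median of 3.11 CPM and 19.8% of the late-numbered counts. The 19 of the 2200s had a median of 0.810 CPM, with mir-2212, mir-2210 and mir-2216 highest. mir-2953, alone in its block, had 1.57 CPM. The 33 of the 4800s and 4900s had a median of 0.404 CPM and were led by mir-4813, mir-4816 and mir-4936. The 15 of the 5500s had a median of 1.71 CPM and, through mir-5592, 54.2% of the counts. The 29 of the 8100s and 8200s had a median of 0.657 CPM, with mir-8199, mir-8196a and mir-8198 highest.

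For testing, hairpins with too few reads were set aside by a filter on counts. It asked for about 10 or more, scaled to library size, in at least 3 libraries (the size of a group) of any groups. This kept 68 of the 109 late-numbered hairpins (62.4%) and 120 of the 134 lower-numbered ones (89.6%). The 3 with the lowest totals that passed were mir-4934 with 103 counts, mir-1832b with 131 and mir-4935 with 142. The 3 with the highest totals that did not pass were mir-8211 with 148, mir-2217b-2 with 142 and mir-4808 with 120. A hairpin high in a single group passes more easily than one spread evenly, so the 68 are not a sample of all 109. mir-4927, an intron-sized hairpin, was the only member seen in a single group, as 1 count in DMSO at 1 day.

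Names were matched to the Ensembl 115 annotation of the WBcel235 assembly, which holds 105 of the 109 (not mir-2217b-3, mir-2217b-4, mir-5593-1 and mir-5593-2). Within an intron of another gene, on its strand, lay 34 of them (32.4%), against 27 of 133 lower-numbered hairpins (20.3%). Between genes lay 53 (50.5%), against 84 (63.2%). A further microRNA within 10 kb on the same strand was annotated for 20 (19.0%), against 51 (38.3%). On the X chromosome lay 22 (21.0%), against 44 (33.1%). Hairpins that fill a whole annotated intron, to within 3 bases at each end, as a mirtron does, were mir-4816, mir-4920, mir-4924, mir-4926 and mir-4927, against 3 among the lower-numbered hairpins. Of these 5, mir-4816 was among the 10 highest members. The largest cluster was on the X, where 10 members (mir-2220, mir-4807, mir-4808, mir-4809, mir-4810a, mir-4810b, mir-4921, mir-4923a, mir-4923b and mir-4925) lie beside mir-1018. All 10 had counts, 4 passed the filter, and the highest, mir-4810a, had a mean of 1.60 CPM.

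Some of these rows cannot be separated by their reads. mir-5592-1 and mir-5592-2 are annotated on opposite strands of 1 place in an intron of aakb-1 (a subunit of the energy sensor AMP-activated kinase), where 62 of their 64 bases overlap. Their levels were almost the same in every group, with 402 and 407 CPM in rotenone at 2 days and 334 and 336 CPM in DMSO at 2 days. The sources used here do not say whether reads were counted by strand or how reads with several matches were assigned, so the rows count as 1 measurement. mir-8203 lies opposite the lower-numbered mir-786, with an overlap of 61 bases. Unlike those of the mir-5592 rows, their levels were far apart. The mean was 87.5 CPM for mir-786, while the group means of mir-8203 ran from 2.05 to 5.14 CPM. The 2 copies of mir-8186, which did not pass the filter, overlap by 60 bases on opposite strands. Counts of the lettered and numbered copies (mir-1832a and mir-1832b, mir-8196a and mir-8196b, mir-5593-1 and mir-5593-2) are uncertain too. The handling of reads with several matches is not stated.

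The share of all reads held by the late-numbered hairpins was lower at the later times. In rotenone worms it was 0.184% ± 0.0041, 0.168% ± 0.0034, 0.170% ± 0.0037, 0.130% ± 0.0024 and 0.134% ± 0.0063 at 6 hours and 1, 2, 3 and 5 days (SD, n = 3 each). In DMSO worms it was 0.180% ± 0.0057, 0.177% ± 0.0053, 0.165% ± 0.0059, 0.135% ± 0.0018 and 0.141% ± 0.0058. H2O worms had 0.172% ± 0.0043 at 1 day and 0.140% ± 0.0027 at 5 days. Every library of 3 and 5 days lay below every library of the earlier times, and the means of rotenone and DMSO worms of a time lay closer together than those of early and late times. Without both mir-5592 rows the share was highest at 2 days, at 0.0860% ± 0.0020 in rotenone and 0.0928% ± 0.0017 in DMSO worms, and lowest at 5 days, at 0.0604% ± 0.0026 and 0.0616% ± 0.0013. These shares depend on the other reads of a library, and no test was run on them.

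**Figure D2:**
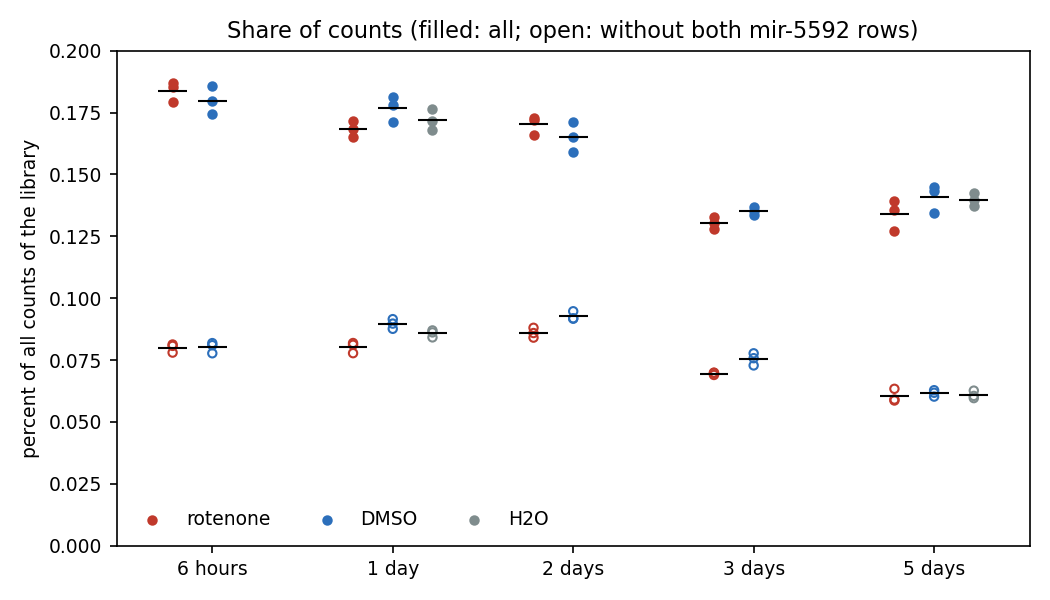
Share of each library's counts held by the late-numbered hairpins, in percent, by time, with rotenone left of DMSO and H2O right of both. Filled points are all members, open points leave out both mir-5592 rows, and lines are group means. The filled points of 3 and 5 days lie below those of the earlier times.

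Far more of the late-numbered hairpins passed a test between times than between treatments. The mean level in the highest of the 12 groups exceeded that in the lowest by more than 2-fold for 56 of the 67 tested members that had counts in every group, and by more than 10-fold for 15, with a median ratio of 4.19. The 120 tested lower-numbered hairpins had a median ratio of 2.12, and 3 exceeded 10-fold. Counting error widens this ratio at low counts. So does the filter, which a hairpin high in a single group passes more easily. Above a mean of 10 CPM the medians were 2.31 for 16 late-numbered hairpins and 1.99 for 112 lower-numbered ones.

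Between 6 hours and 1 day some late-numbered hairpins rose and others fell, and a smaller share of them passed than of all hairpins. In DMSO worms 36 of the 68 tested (52.9%) passed an adjusted p of 0.05 in edgeR's quasi-likelihood test (24 higher and 12 lower at 1 day). Of all 193 hairpins tested 65.3% passed (30.6% higher and 34.7% lower). In rotenone worms 35 (51.5%) passed (24 higher and 11 lower), against 63.7% of all hairpins (32.6% higher and 31.1% lower). The median change of the 68 was 0.28 in DMSO and 0.18 in rotenone on the log2 scale, beside -0.08 and -0.05 over all 193. The comparisons share no library, and 28 hairpins passed in both with the same direction, 77.8% of the DMSO calls and 80.0% of the rotenone calls. None passed in opposite directions. With scaling factors taken from the lower-numbered hairpins alone, the DMSO split was 27 higher and 6 lower, and the median of all hairpins was 0.12 in place of -0.08.

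mir-8199, which lies between genes on chromosome II, was higher at 1 day than at 6 hours in both treatments. Its levels were 38.8, 40.6 and 42.1 CPM in rotenone worms at 1 day, against 2.58, 1.33 and 1.06 CPM at 6 hours. DMSO worms had 50.4, 49.9 and 48.3 CPM at 1 day, against 3.45, 3.08 and 1.81 CPM at 6 hours. No library of one time came near those of the other. The log2 change was 4.60 ± 0.16 in rotenone and 4.16 ± 0.16 in DMSO worms (SE; adjusted p = 1.1e-24 and 1.68e-23).

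mir-4813, annotated at the end or in an exon of idhg-1 (a subunit of mitochondrial isocitrate dehydrogenase), rose almost 4-fold. Rotenone worms had 168, 154 and 178 CPM at 1 day, against 42.7, 51.9 and 44.6 CPM at 6 hours. DMSO worms had 208, 192 and 222 CPM at 1 day, against 48.8, 53.5 and 52.8 CPM at 6 hours. The log2 changes were 1.84 ± 0.077 and 2.00 ± 0.078. mir-1832a, in an intron of the splicing factor gene rsp-8, rose by 2.28 ± 0.15 in rotenone worms and 2.11 ± 0.15 in DMSO worms, and mir-5546, in an intron of arx-1 (Arp2/3 complex, actin branching), by 3.74 ± 0.32 and 2.95 ± 0.30.

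Others among the largest rises were low in counts. Among the member calls between 6 hours and 1 day, 6 of 35 in rotenone worms had libraries that overlap between the times. In DMSO worms 1 of 36 did. The mir-1823 libraries of rotenone worms at 1 day spread widely, with a mean of 0.773 CPM and an SD of 0.773 CPM. mir-1823 had 18 counts in rotenone worms at 1 day against 5 at 6 hours, and in DMSO worms 49 counts at 1 day against 0 at 6 hours, at least 12.8-fold higher when the floor is 3 counts over the group. mir-8190, opposite the cadherin gene hmr-1, had 21 counts against 2 in rotenone worms (ratio 19.8, 95% counting interval 4.85 to 175), with 19 counts against 13 and no call in DMSO worms. mir-5593-2 had 16 counts against 2 in DMSO worms (ratio 6.25, interval 1.47 to 56.1), and mir-1832b had 11 against 3 in rotenone worms (ratio 6.93, interval 1.83 to 38.7). mir-1818 (3.37 ± 0.60), mir-4810a (2.68 ± 0.46), mir-4805 (2.65 ± 0.33), mir-8192 (2.37 ± 0.74), mir-5552 (2.30 ± 0.27) and mir-8205 (2.15 ± 0.79) completed the 10 largest rises in DMSO worms. In rotenone worms mir-5593-2 (2.56 ± 0.85, 14 counts against 4), mir-4807 (2.63 ± 0.75), mir-2207 (2.11 ± 0.62) and mir-4805 (1.87 ± 0.34) did. The neighbours mir-4807, mir-4810a and mir-2220 of the X cluster rose in both treatments.

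Fewer fell over the same interval. mir-1817, between genes on chromosome I, had 87.0, 82.8 and 79.1 CPM in rotenone worms at 1 day, against 141, 178 and 147 CPM at 6 hours. In DMSO worms it had 70.6, 73.9 and 73.8 CPM, against 152, 143 and 141 CPM. No library of 1 day reached the lowest of 6 hours in either treatment, with log2 changes of -0.90 ± 0.082 and -1.0 ± 0.082. mir-1830, in an intron of the purine synthesis gene paic-1, fell by 0.31 ± 0.097 in rotenone worms, whose libraries overlap between the times, and by 0.73 ± 0.096 in DMSO worms. mir-4935 (-1.76 ± 0.77 and -2.29 ± 0.60), mir-8189 (-1.59 ± 0.46 and -1.58 ± 0.46), mir-8193 (-0.65 ± 0.23 and -0.96 ± 0.22), mir-5551 (-0.50 ± 0.14 and -0.44 ± 0.14), mir-2212 (-0.41 ± 0.093 and -0.48 ± 0.092) and mir-1820 (-0.29 ± 0.081 and -0.29 ± 0.080) fell in rotenone and in DMSO worms. Of these, mir-4935 had one of the lowest totals to pass the filter. Its highest mean, 1.16 CPM, was in DMSO worms at 6 hours, so the filter favoured its fall from that group. mir-2953 (-1.09 ± 0.32), mir-5547 (-1.02 ± 0.34) and mir-8203 (-0.55 ± 0.23, overlapping) passed in rotenone worms only, and mir-1819 (-0.59 ± 0.25, overlapping) and mir-4811 (-0.54 ± 0.20) in DMSO worms only, which was not tested as a difference between treatments. Both mir-5592 rows fell in DMSO worms by 0.19 ± 0.060 and 0.15 ± 0.068, a direction that turned to 0.00 and 0.04 with scaling by the lower-numbered hairpins.

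**Figure D3:**
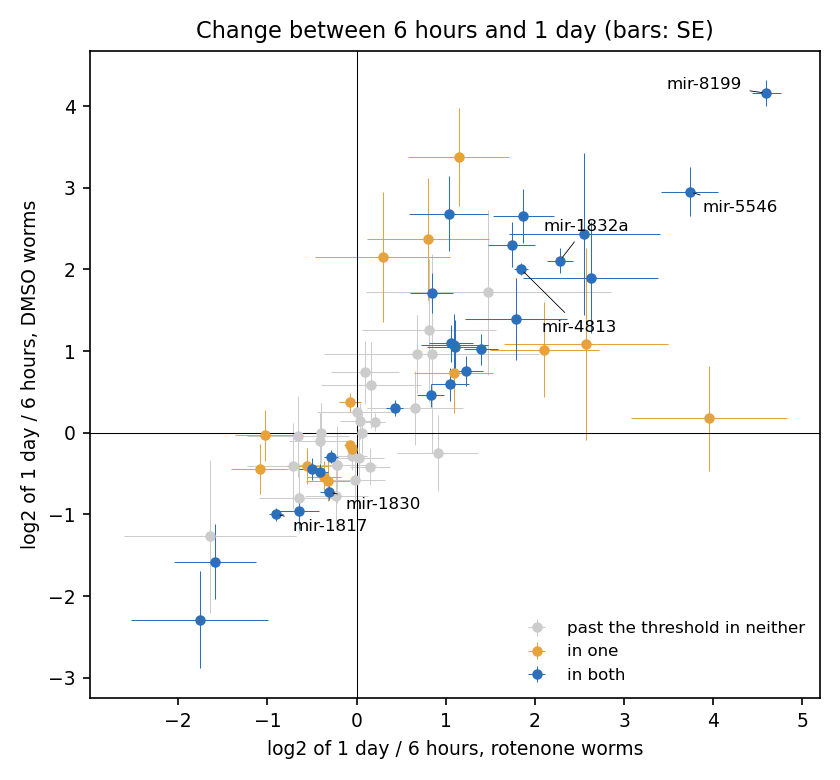
Log2 change between 6 hours and 1 day in rotenone worms (horizontal) and DMSO worms (vertical) for 67 tested members, with bars of 1 SE. mir-1823, which had a group at 0 counts, is not drawn. mir-8199 and mir-5546 lie far up in both treatments and mir-1817 lies below 0 in both.

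Whole-worm RNA does not separate a change in the number of cells of a type from a change per cell. The mir-35 to mir-42 hairpins, made in oocytes and embryos, summed to 19346 CPM in rotenone and 23467 CPM in DMSO worms at 6 hours and to between 101985 and 148979 CPM in the 10 later groups. The sum of these embryonic hairpins thus moved with the same interval, and their part in the changes of the late-numbered hairpins was not tested. Groups also differ in sequencing lane, and 6 hours and 1 day were on different lanes in both treatments.

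After the first day the late-numbered hairpins took several courses. DMSO worms of 5 and 2 days shared a lane, and 33 of the 68 members (48.5%) passed (18 higher and 15 lower at 5 days). Of all hairpins 67.9% passed (33.2% higher and 34.7% lower). Scaling by total counts gave 11 higher and 22 lower, with the median of all hairpins at -0.33 in place of -0.06. Rotenone worms of 3 and 1 days also shared a lane, and there 20 (29.4%) passed (10 in each direction), against 42.5% of all (21.2% in each direction). In H2O worms 25 (36.8%) passed between 1 and 5 days (13 higher and 12 lower at 5 days), against 57.5% (27.5% higher and 30.1% lower). Among these member calls, 2, 1 and 1 had libraries that overlap between the times in the DMSO, rotenone and H2O comparisons. The DMSO and H2O comparisons share no library, and 22 members passed in both with the same direction, 66.7% of the DMSO calls and 88.0% of the H2O calls, with none in opposite directions.

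mir-1832a rose over the first day and again after it. It had 79.8, 85.6 and 86.9 CPM in rotenone worms at 5 days, 99.0, 92.7 and 88.2 CPM in DMSO worms and 88.2, 107 and 88.5 CPM in H2O worms at that time, while at 6 hours no library exceeded 5.06 CPM. It rose by 1.82 ± 0.11 between 2 and 5 days in DMSO, by 1.53 ± 0.12 between 1 and 3 days in rotenone and by 2.21 ± 0.11 between 1 and 5 days in H2O worms. mir-4937, mir-5545, mir-5552, mir-5594, mir-8198 and mir-8201 were also higher at 1 day than at 6 hours and higher at 5 days than at 2 days in DMSO worms, but not all of them rose at each step between. mir-4937 had means of 4.91, 9.97, 6.93, 8.68 and 9.73 CPM at 6 hours and 1, 2, 3 and 5 days in DMSO worms, so it was no higher at 5 days than at 1 day. mir-8198 had 8.54 CPM at 1 day and 7.88 CPM at 2 days, and mir-8201 had 18.1 CPM at 3 days and 16.2 CPM at 5 days. mir-5552, in an intron of prp-6 (a splicing factor), had means of 1.63 CPM at 6 hours, 5.50 CPM at 1 day and 12.4 CPM at 3 days in rotenone worms.

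mir-2221, mir-8202 and mir-4929 were higher at 5 days than at 2 days in DMSO worms and were called in neither treatment between 6 hours and 1 day. mir-2221, between genes on the X, had 6.02, 4.47 and 3.10 CPM in rotenone worms at 5 days, 3.85, 4.82 and 4.89 CPM in DMSO worms and 6.27, 6.20 and 7.75 CPM in H2O worms. No library of 6 hours, 1 day or 2 days exceeded 0.694 CPM. mir-2221 thus passed the filter through its later groups, so the filter favoured its late rise. The log2 change was 4.68 ± 0.57 between 2 and 5 days in DMSO (62 counts against 6) and 4.35 ± 0.46 between 1 and 5 days in H2O worms (104 counts against 11), and in rotenone worms it had 24 counts at 3 days against 3 at 1 day (ratio 9.28, interval 2.82 to 48.2). mir-8202 lies in an intron of the sodium leak channel gene unc-77. Over these times it rose by 3.05 ± 0.45 in DMSO and 1.86 ± 0.36 in H2O worms. Between 1 and 3 days in rotenone it rose by 1.46 ± 0.43. Its mean in DMSO worms was lowest at 2 days, with 0.573 CPM against 0.979 CPM at 1 day. mir-4929 rose by 2.36 ± 0.44 in DMSO and 1.91 ± 0.38 in H2O worms. Its means in DMSO worms were 2.85 CPM at 6 hours, 2.18 CPM at 1 day, 0.830 CPM at 2 days, 2.80 CPM at 3 days and 4.31 CPM at 5 days, so the level at 2 days was its lowest there. In DMSO worms mir-1832b (2.98 ± 0.77), mir-5550 (1.72 ± 0.60), mir-5594 (1.2 ± 0.28), mir-5552 (1.08 ± 0.19), mir-8208 (1.08 ± 0.44) and mir-8201 (1.08 ± 0.18) were the other large rises. In H2O worms they were mir-8201 (1.75 ± 0.19), mir-5594 (1.45 ± 0.28), mir-5552 (1.44 ± 0.21), mir-5545 (1.2 ± 0.21), mir-8198 (1.10 ± 0.19) and mir-2210 (0.93 ± 0.18), and between 1 and 3 days in rotenone worms mir-8201 (1.66 ± 0.20), mir-5545 (1.63 ± 0.20), mir-5594 (1.32 ± 0.32), mir-5552 (1.17 ± 0.21) and mir-1820 (0.25 ± 0.084).

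Others were higher at 1 day than at 6 hours and lower at 5 days than at 2 days. mir-4813 reached 199, 193 and 180 CPM in rotenone and 231, 221 and 227 CPM in DMSO worms at 2 days, and at 5 days it had 50.7, 51.9 and 55.3 CPM in rotenone and 47.5, 51.8 and 47.1 CPM in DMSO worms, close to its level at 6 hours. It fell by 2.22 ± 0.084 between 2 and 5 days in DMSO, by 2.09 ± 0.085 between 1 and 5 days in H2O and by 0.49 ± 0.075 between 1 and 3 days in rotenone worms. mir-8199 followed the same course and was highest at 2 days, with 72.6, 76.3 and 77.3 CPM in rotenone and 70.8, 66.9 and 67.5 CPM in DMSO worms. It fell by 2.03 ± 0.13 to 5 days in DMSO worms. mir-1818, mir-4805, mir-4810a, mir-4816, mir-4936 and mir-8196a were the other members that rose over the first interval and fell over the later one in DMSO worms. In the later DMSO interval mir-4920 had 3 counts against 48 (ratio 0.168, interval 0.0335 to 0.522), and mir-1818 (-2.14 ± 0.62), mir-4810a (-1.97 ± 0.54), mir-4926 (-1.89 ± 0.65), mir-8196b (-1.68 ± 0.53), mir-4805 (-0.97 ± 0.32), mir-8196a (-0.88 ± 0.13) and mir-1828 (-0.76 ± 0.30), the last in an intron of pash-1, which encodes Pasha, were the other large falls. Between 1 and 3 days in rotenone worms mir-1818 and mir-4810a rose, by 1.2 ± 0.47 and 0.94 ± 0.39. This interval differs from that of their falls in DMSO worms. In DMSO worms mir-1818 had means of 1.58 CPM at 1 day and 2.17 CPM at 3 days, and mir-4810a 2.62 and 1.55 CPM. In rotenone worms mir-1818 had 1.83 CPM at 3 days and 1.22 CPM at 5 days, and mir-4810a 2.95 and 1.24 CPM.

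mir-1817, mir-1830 and mir-2212 fell both over the first day and after 2 days in DMSO worms. mir-1817 had 26.6, 26.1 and 26.4 CPM in rotenone and 33.6, 27.7 and 30.4 CPM in DMSO worms at 5 days, the lowest of its course in these treatments. It fell by 0.34 ± 0.10 between 2 and 5 days in DMSO, 1.28 ± 0.094 between 1 and 3 days in rotenone and 1.40 ± 0.098 between 1 and 5 days in H2O worms. mir-1830 fell by 0.44 ± 0.11, 0.98 ± 0.11 and 1.51 ± 0.11 and mir-2212 by 0.48 ± 0.11, 0.74 ± 0.11 and 0.63 ± 0.11 in the same 3 comparisons. mir-1819, the neighbour of mir-2212, fell by 1.38 ± 0.36 in rotenone and 1.58 ± 0.44 in H2O worms. Other falls in these were mir-8208 (-1.39 ± 0.54), mir-8210 (-1.33 ± 0.31), mir-5592-2 (-0.50 ± 0.069) and mir-8199 (-0.38 ± 0.12) in rotenone worms and mir-4810a (-2.0 ± 0.50), mir-4811 (-1.42 ± 0.27), mir-8199 (-1.23 ± 0.13), mir-4805 (-1.17 ± 0.35), mir-8196a (-0.98 ± 0.14) and mir-1828 (-0.76 ± 0.31) in H2O worms. Both mir-5592 rows and mir-1820 went the other way, lower at 1 day than at 6 hours and higher at 5 than at 2 days in DMSO worms. The fall of the mir-5592 rows over the first day was not kept with scaling by the lower-numbered hairpins. In rotenone worms mir-5592-1 had means of 451, 402, 313 and 403 CPM at 1, 2, 3 and 5 days. Its change between 1 and 3 days was -0.53 ± 0.061. In DMSO worms it had 419, 334, 290 and 446 CPM at the same times. The change between 2 and 5 days was 0.41 ± 0.061 there. These intervals differ, and in both treatments mir-5592-1 was lowest at 3 days.

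**Figure D4:**
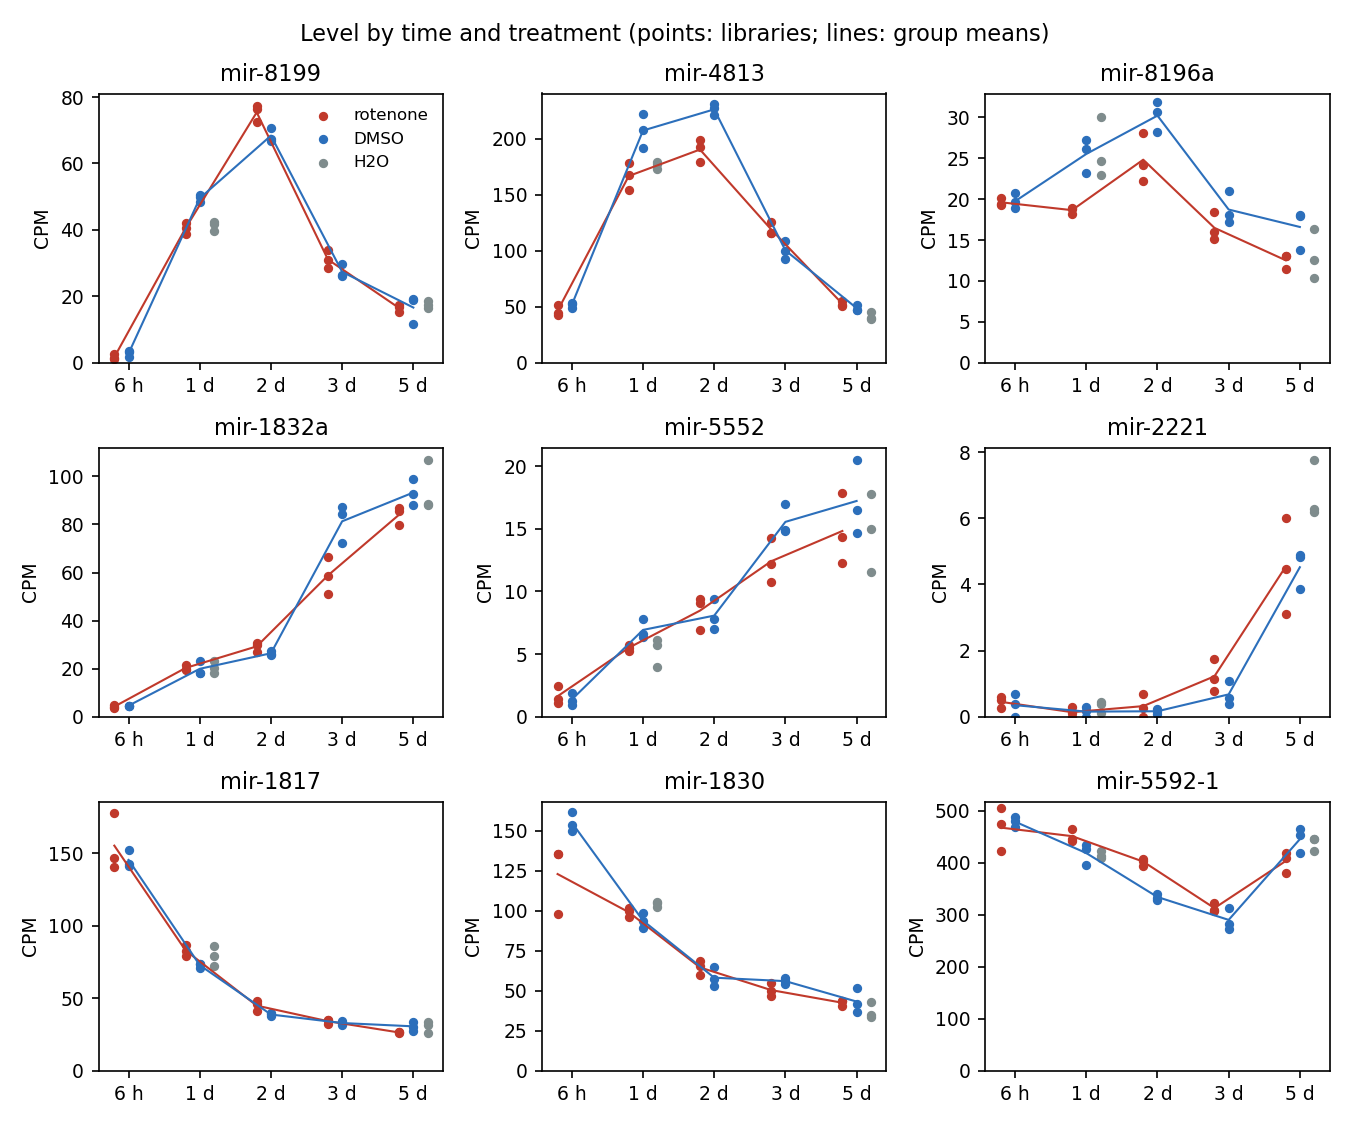
CPM in each library of 9 late-numbered hairpins by time, with rotenone (red) left of DMSO (blue) and H2O (grey), on axes that start at 0. Lines join group means. mir-8199 and mir-4813 are highest at 2 days, mir-1832a, mir-5552 and mir-2221 are highest at 5 days, and mir-1817 and mir-1830 are highest at 6 hours.

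Between rotenone and DMSO worms of 1 time fewer of the late-numbered hairpins passed the test than between times. At 6 hours 3 of the 68 passed, all lower in rotenone worms, where 11.9% of all 193 hairpins passed (1.04% higher and 10.9% lower). At 1 day 2 passed, both lower, against 16.6% (10.4% higher and 6.22% lower). At 2 days 12 passed (7 higher and 5 lower), against 42.5% (21.2% in each direction). At 3 days 3 passed (1 higher and 2 lower), against 12.4% (8.29% higher and 4.15% lower). At 5 days 0 passed in edgeR's test, against 1.04% (0% higher and 1.04% lower), with 7 at an unadjusted p under 0.05 and 0 in DESeq2. Each share, 4.41%, 2.94%, 17.6%, 4.41% and 0% of the members, lay below that of all hairpins. Of the lower-numbered hairpins 17, 29, 68, 18 and 2 of 120 passed. Rotenone and DMSO worms of 1 time were always sequenced on different lanes, so treatment and lane cannot be told apart in any of these comparisons.

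The precision differed between the sets as well, and on the whole a change had to be larger to pass among the late-numbered hairpins. The median standard error of the log2 change at 2 days was 0.32 for the 68 late-numbered hairpins and 0.084 for the 120 lower-numbered ones. By level, 0 of 16 members under 1 CPM, 3 of 36 between 1 and 10 CPM, 6 of 13 between 10 and 100 CPM and 3 of 3 above 100 CPM passed at 2 days, against 2 of 8, 18 of 30 and 48 of 82 lower-numbered hairpins in the last 3 classes. Both mir-5592 rows, a single measurement, are among the 3 members above 100 CPM. The median log2 change of the 68 was 0.08, beside 0.02 over all 193 hairpins. The median standard error in these 4 classes of members was 0.54, 0.32, 0.11 and 0.068.

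At 2 days the hairpins that were higher in rotenone worms were led by the most abundant. mir-5592-1 had 404, 408 and 395 CPM in rotenone worms, against 333, 341 and 329 CPM in DMSO worms. mir-5592-2 had 407, 409 and 406 CPM, against 338, 350 and 319 CPM. The libraries do not overlap, and the log2 changes were 0.27 ± 0.060 and 0.28 ± 0.068 (adjusted p = 0.000513 and 0.00109), a single measurement for the reason given above. mir-2210, annotated at the end or in an exon of ZK593.2, had 12.3, 12.5 and 15.5 CPM in rotenone worms, against 8.03, 10.6 and 6.49 CPM in DMSO worms, a change of 0.68 ± 0.16 (adjusted p = 0.00104).

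The other 4 that were higher were smaller in level or in change. mir-8203 had 2.71, 4.28 and 3.67 CPM in rotenone worms, against 1.62, 2.32 and 2.22 CPM in DMSO worms (0.77 ± 0.26, adjusted p = 0.0152). mir-786 on its opposite strand was lowest in DMSO worms of 2 days among the 12 groups, with a mean of 51.9 CPM, as was mir-8203 with 2.05 CPM. mir-2953 had 49 counts in rotenone against 26 in DMSO worms (1.15 ± 0.39, adjusted p = 0.0172). For mir-8202 the counts were 46 against 21 (1.36 ± 0.49, adjusted p = 0.0265). Both were also lowest in DMSO worms of 2 days among the 12 groups, with means of 0.716 and 0.573 CPM. mir-1817 had 47.9, 41.0 and 45.8 CPM, against 39.7, 37.6 and 38.9 CPM (0.21 ± 0.089, adjusted p = 0.0488).

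Lower in rotenone worms at 2 days were mir-4813, mir-1822, mir-8196a, mir-4816 and mir-1820. mir-4813 had 199, 193 and 180 CPM, against 231, 221 and 227 CPM in DMSO worms, a change of -0.25 ± 0.071 (adjusted p = 0.00518). mir-1822, in an intron of ZK84.2, had 28.0, 23.4 and 24.6 CPM, against 32.9, 31.4 and 31.9 CPM, a change of -0.34 ± 0.11 (adjusted p = 0.0110). mir-8196a changed by -0.29 ± 0.11. The libraries of mir-4816 (-0.23 ± 0.095) and mir-1820 (-0.19 ± 0.080) overlapped between treatments, with adjusted p-values of 0.0471 and 0.0488. The count of 12 was 6 without replicate 2 of DMSO at 2 days and 7 when only the compared groups entered the fit.

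mir-4813 was the only member called at 3 times, and it did not keep 1 direction. At 1 day it had 168, 154 and 178 CPM in rotenone worms, against 208, 192 and 222 CPM in DMSO worms (-0.31 ± 0.072, adjusted p = 0.00192). The H2O worms of 1 day had 180, 173 and 177 CPM, and rotenone differed from them by -0.08 ± 0.073 (adjusted p = 0.545). mir-4813 was higher in DMSO than in H2O worms by 0.23 ± 0.072 at 1 day and 0.23 ± 0.096 at 5 days. The libraries did not overlap at either time, but neither difference passed edgeR's test (adjusted p = 0.252 and 0.905). At 3 days it had 116, 126 and 116 CPM in rotenone worms, against 109, 92.7 and 99.8 CPM in DMSO worms (0.25 ± 0.076, adjusted p = 0.0268), a call lost under several alternatives (adjusted p up to 0.160). The difference between rotenone and DMSO worms varied between the times, with an adjusted p of 0.00017 in an F test of that difference in edgeR. Of all 68 members 12 (17.6%) passed this test, against 71 of the 120 lower-numbered hairpins (59.2%) and 45.1% of all 193.

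mir-8196a, between genes on the X, was lower in rotenone worms at 1 day. Its levels were 18.9, 18.2 and 18.8 CPM in rotenone worms, against 27.2, 23.2 and 26.1 CPM in DMSO worms, a change of -0.46 ± 0.12 (adjusted p = 0.00542). Against the H2O worms of 1 day, with 30.1, 24.7 and 22.9 CPM, the change was -0.49 ± 0.12 (adjusted p = 0.00484). It was the only member called in that comparison, where 11.9% of all hairpins passed (8.29% higher and 3.63% lower), and without replicate 1 of the H2O worms its change was -0.35 (adjusted p = 0.0906). Both comparisons use the same rotenone libraries. Averaged over the 5 times mir-8196a changed by -0.26 ± 0.058 (adjusted p = 0.00102), with a lower mean in rotenone worms at every time, from -0.01 at 6 hours to -0.46 at 1 day. In a model with time, treatment and lane as separate terms the change was -0.21 (adjusted p = 0.0169).

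The average over the 5 times gave calls for 3 members (1 higher and 2 lower), against 22.3% of all hairpins (8.29% higher and 14% lower). Besides mir-8196a these were mir-8203 (0.39 ± 0.12, adjusted p = 0.0157), with a change of -0.12 at 1 day and positive changes at the other times, and mir-1820 (-0.10 ± 0.036, adjusted p = 0.0440). Neither passed in the model with lane, with adjusted p-values of 0.0732 and 0.126.

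The remaining calls stood at 1 time each. At 3 days mir-1832a had 51.2, 66.5 and 58.6 CPM in rotenone worms, against 84.5, 72.3 and 87.1 CPM in DMSO worms, a change of -0.47 ± 0.10 (adjusted p = 0.00132). No rotenone library reached the lowest DMSO library, and at 2 and 5 days the changes were 0.15 and -0.15, neither past the threshold. mir-8212 had 33 counts against 90 at 3 days (-1.01 ± 0.35, adjusted p = 0.0484). At 6 hours mir-1830 had 136, 97.8 and 135 CPM in rotenone worms, against 150, 162 and 154 CPM in DMSO worms (-0.34 ± 0.095, adjusted p = 0.0214), and without replicate 2 of rotenone the change was -0.20 (adjusted p = 0.174). mir-4936 had 8.45, 13.6 and 8.53 CPM, against 13.4, 14.3 and 14.8 CPM, which overlap (-0.47 ± 0.15, adjusted p = 0.0431). mir-8190 had 2 counts against 13 (ratio 0.0992, interval 0.0109 to 0.438), of which 10 were in 1 DMSO library. All 3 calls of 6 hours were lost when libraries were scaled by total counts.

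**Figure D5:**
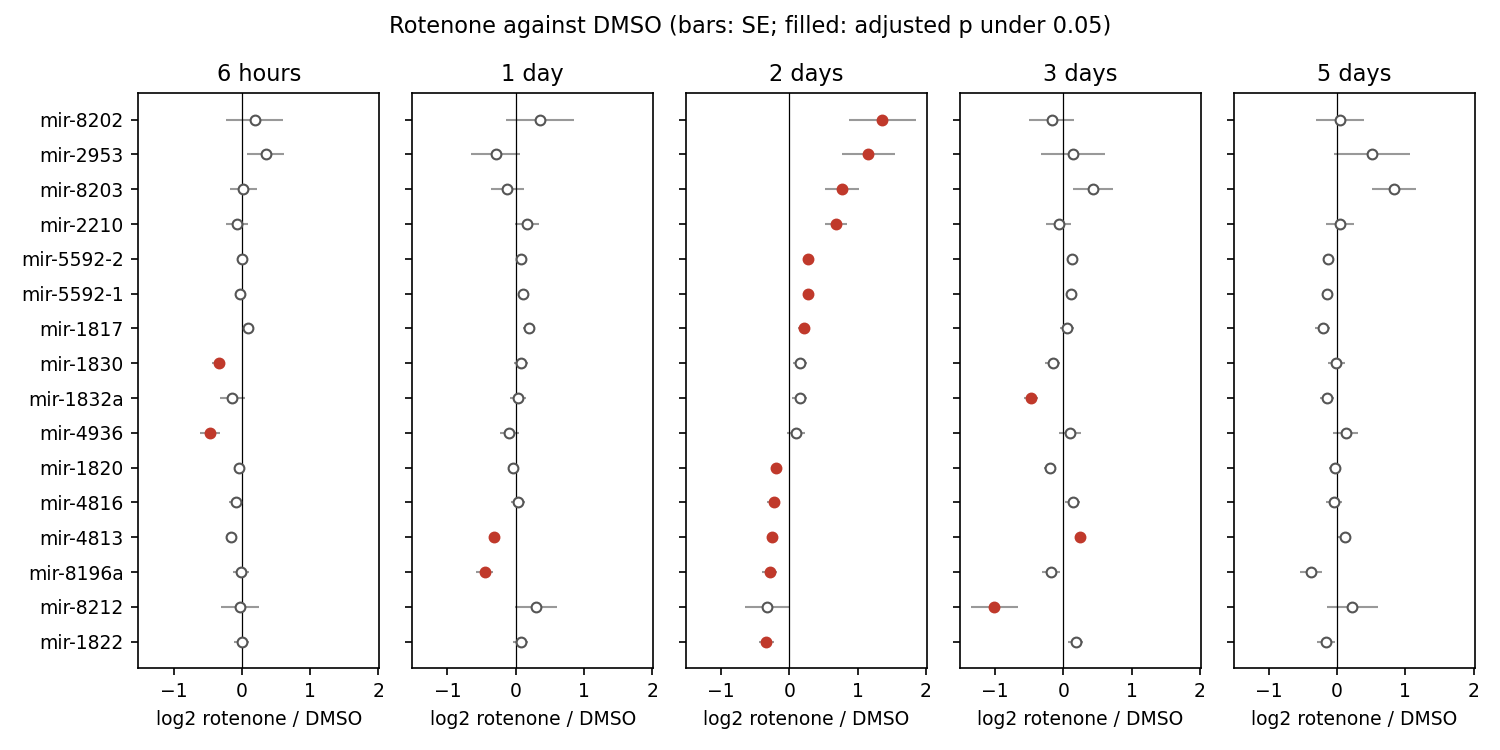
Log2 change in rotenone over DMSO worms at each time for 16 late-numbered hairpins called at 1 or more times, with bars of 1 SE and filled points past an adjusted p of 0.05. mir-8190, with 2 counts in rotenone worms at 6 hours, is not drawn. mir-4813 lies below 0 at 1 and 2 days and above 0 at 3 days.

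Over the 5 times 51 of the 68 members were never called, 15 were called at 1 time, mir-8196a at 2 and mir-4813 at 3. Of the 20 calls at single times, 7 held under every alternative. They were those of mir-4813 at 1 and 2 days, mir-8196a at 1 day, mir-5592-1, mir-5592-2 and mir-2210 at 2 days, and mir-1832a at 3 days. Both mir-5592 rows enter these counts, although they are a single measurement. Rotenone against H2O at 5 days gave 0 member calls in edgeR and 1 in DESeq2, with 5 at an unadjusted p under 0.05, against 1.04% of all hairpins. mir-4813 came nearest, with a change of 0.34 ± 0.093 (adjusted p = 0.0526). DMSO against H2O gave 0 member calls in edgeR and in DESeq2 at 1 and at 5 days, with 5 and 3 at an unadjusted p under 0.05, and 0% of all hairpins passed at either time.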

How the data were processed

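The authors deposited raw read counts per microRNA hairpin, arms not separated, in a single table of 36 libraries. Per the labels' protocols libraries were made with the TruSeq small RNA kit, and per the submitters' processing notes they used BWA 0.7.12-r1039, Trimmomatic 0.36, SAMtools 1.3.1-9 and bcl2fastq 1.8.4. No source used here states the genome build, the strand setting or the handling of reads with several matches, and no coordinates are printed. In R 4.3.3, filterByExpr by group (minimum count 10) kept 193 hairpins. All 36 libraries entered a single edgeR 4.0.16 model of group means (quasi-likelihood, TMM factors 0.854 to 1.16), with Benjamini-Hochberg adjustment over all 193 and a threshold of 0.05. Total counts ran from 4361246 to 14960062, and 3 counts set the floor. Intervals and floors cover counting error only. In 20 simulations of rotenone against DMSO at 2 days, 6.69% of calls were false, above the threshold of 0.05. Changes of 1.25-, 1.5- and 2-fold were recovered in 16.4%, 45% and 67% of cases for late-numbered hairpins. For lower-numbered hairpins the values were 73.1%, 97.2% and 99.4%. The simulations covered that comparison alone. Groups, lanes and times come from the labels. Alternatives were other scaling, no filter, DESeq2 1.42.0, a replicate block, only the compared groups, each library left out, and later additions named in the closing section.

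Named are the 10 highest members, those past the threshold (up to 10 rises and 10 falls per comparison), and those beside the filter. A few others with their values were chosen after the values were seen. The members and lists were chosen with earlier results of these data known, and the between-times test was added later.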

Additional observations from a re-analysis of the deposited data

Results flagged for a closer look

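For 12 late-numbered hairpins the difference between rotenone and DMSO worms differed between the 5 times, by edgeR's F test of the difference itself, adjusted over 193 hairpins. Treatment and lane cannot be told apart at any time. The adjusted p was 0.00017 for mir-4813, with log2 changes of -0.16, -0.31, -0.25, 0.25 and 0.11 at 6 hours and 1, 2, 3 and 5 days. It was 0.00184 for mir-5592-1 and 0.00829 for mir-5592-2, which were higher at 2 days (0.27 and 0.28) and had changes of -0.14 and -0.14 at 5 days. These rows are a single measurement, although both are counted among the 12. For the next hairpins the adjusted p is again that of the F test. The value was 0.0084 for mir-1832a, with -0.47 at 3 days and 0.15 at 2 days. mir-8199 (adjusted p = 0.0117) had changes of -0.73 at 6 hours and 0.18 at 3 days, although it was called at no single time. mir-1830 (adjusted p = 0.0246) had -0.34 at 6 hours and 0.15 at 2 days. mir-2210 (adjusted p = 0.0399) had 0.68 at 2 days and between -0.07 and 0.17 at the other times. mir-1822 (adjusted p = 0.0415) had -0.34 at 2 days and 0.18 at 3 days.

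The other 4 rest on few counts. mir-8190 (adjusted p = 0.0119) had 2 counts in rotenone against 13 in DMSO worms at 6 hours and 21 against 15 at 3 days. mir-4810a (adjusted p = 0.0211) had 32 against 11 at 6 hours and 35 against 93 at 1 day. mir-1818 (adjusted p = 0.0404) had 15 against 4 at 6 hours and 18 against 58 at 1 day. mir-1832b (adjusted p = 0.0417) had 13 against 5 at 2 days and 6 against 29 at 3 days. Its total was one of the lowest to pass the filter. The highest mean, 1.08 CPM, was in DMSO worms at 3 days, so the filter favoured the difference at that time.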

How the results depend on the processing

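Counts of members called moved by more than 1.5 times as follows. For rotenone against DMSO at 6 hours (3 members) they were 1 with DESeq2 size factors and 0 with total counts, no filter, only the compared groups or TMM factors from the lower-numbered hairpins. At 3 days (3) they were 1 with no filter and 1 with only the compared groups, and at 2 days (12) 7 with only the compared groups. For the average (3) they were 1 with time, treatment and lane as terms and 5 without the 6-hour libraries. For rotenone against H2O at 5 days (0) they were 1 with DESeq2 size factors, DESeq2, the replicate block, copies of 1 name summed or TMM factors from the lower-numbered hairpins. Members detected (106) were 68 at 10 or more counts in 3 libraries and 68 at 1 or more CPM in 3 libraries. With each library left out, rotenone against DMSO gave 1 to 3 calls at 6 hours, 2 to 3 at 1 day, 6 to 10 at 2 days (6 without replicate 2 of DMSO), 1 to 3 at 3 days (1 without replicate 2 or 3 of DMSO or replicate 2 of rotenone), 0 to 0 at 5 days and 2 to 5 for the average. Rotenone against H2O gave 0 to 3 at 1 day and 0 to 0 at 5 days, and DMSO against H2O 0 to 0 at both times. The time comparisons gave 30 to 35 (1 day against 6 hours in DMSO), 28 to 35 (in rotenone), 28 to 33 (5 against 2 days in DMSO), 17 to 20 (3 against 1 day in rotenone) and 23 to 28 (5 against 1 day in H2O). The mean share of counts was 0.157 to 0.159%. Factors from the lower-numbered hairpins, summed copies and the average without 6 hours were chosen after seeing the data. The only reversals were mir-5592-1 (0.0012) and mir-5592-2 (0.044) for 1 day against 6 hours in DMSO with factors from the lower-numbered hairpins. The same factors gave 7 higher and 2 lower at 2 days in place of 7 and 5. No filter gave 7 higher and 11 lower for 3 against 1 day in rotenone in place of 10 and 10, and total counts gave 11 and 13 for 5 against 1 day in H2O in place of 13 and 12 (median of all hairpins -0.193 in place of 0.0157) and 22 and 14 for 1 day against 6 hours in rotenone in place of 24 and 11. The cause of these differences was not tested. In no comparison was every correlation between libraries of the same number over 0.1 (0.108, 0.0254 and 0.103 for rotenone against DMSO at 5 days). The numbers were therefore treated as names of libraries. Such a rule cannot tell whether libraries of the same number share a culture or preparation. With the replicate block 171 of 173 member calls were kept. Hairpins under about 1 CPM had standard errors near 0.5 or more, which limits what could be called.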
